A study of Homo sapiens with 6 samples.

Results

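The genes described here take iron into the cell, store it, release it, sense it or free it from heme. They are the rows of the count table whose symbol is FTH1, FTL, TFRC, SLC40A1, SLC39A14, SLC11A2, NCOA4, IREB2, ACO1 or HMOX1, which are 10 of the 25445 rows. The rule that names them goes by function and uses no measured value, although it was set with earlier results of these data known. All 10 were found, 9 had counts, and the same 9 passed the filter on low counts and were tested. The libraries were labelled as MHCC-97H, an established human liver cancer cell line kept in culture. For 16 h the cells had been given solvent or 10 μM of 6j, a compound derived from sophoridine, which is an alkaloid of plants. There were 3 libraries of 6j treated and 3 of non-treated cells, numbered 1 to 3 in each group, and the groups differed in no other labelled respect. The labels do not state whether the libraries came from separate cultures, so the p-values measure only the spread between these libraries, which may be technical.

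Iron bound to transferrin enters a cell through the transferrin receptor and is carried out of endosomes by metal transporters. Spare iron is held in ferritin, a shell built of heavy and light chains, and ferroportin is the exporter. Iron regulatory proteins bind hairpins called iron-responsive elements when iron is scarce, which blocks translation of ferritin and protects the transferrin receptor mRNA from decay. Heme oxygenase opens heme and sets its iron free, and ferroptosis is a form of cell death that depends on iron and on oxidised lipids.

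The total count was 31533403 to 38018349 per library. Levels are given as CPM, the count of a row scaled to the TMM normalized library size. The identity of the line was not tested beyond marker genes. Most hepatocyte products were near 0: 6 of 9 hepatocyte markers, among them ALB and AFP, were under 1 CPM in every library, and TTR had 0 counts in all 6. KRT8 and KRT18 are keratins of epithelial cells. KRT8 was at 516 to 653 CPM in non-treated and 369 to 457 CPM in 6j treated cells, and KRT18 at 388 to 456 and 320 to 366 CPM. In the test without a block described below, KRT8 had a log2 fold change of −0.58 (adjusted p = 0.0211, edgeR), under 1.5-fold. KRT18 had −0.32 (adjusted p = 0.0661, edgeR), and HNF4A, the other marker of the 9 that was tested, had 0.21 (adjusted p = 0.798, edgeR). The summed level of the 9 markers was 905 to 1110 CPM in non-treated and 706 to 825 CPM in 6j treated cells. KRT8 and KRT18 made up nearly all of this sum, and its part in the results was not tested. Of 4 fibroblast markers COL1A1 alone passed 1 CPM, at 203 to 275.5 CPM, and of 4 leukocyte markers CD68 alone, at 39.8 to 70.5 CPM. Among 3 endothelial markers CDH5 alone did, at 1.41 to 5.93 CPM. All 3 markers of erythroid cells, a lineage rich in heme and iron genes, were under 1 CPM in every library. In bulk RNA, fewer cells of a kind and less RNA per cell cannot be told apart.

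Matches to a pattern of iron-responsive elements are shown for the members, because ferritin and TFRC, whose values follow, carry such elements at opposite ends of their mRNAs. A search was made of the coding transcripts of GENCODE version 29 (GRCh38) for the letters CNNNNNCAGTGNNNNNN on the transcript strand, in which the 5 bases after the first C must pair with the 5 bases after the loop, G with T allowed. Of 19684 coding genes, 260 (1.32%) held this pattern in the longest coding transcript, and 142 (0.721%) held it outside the coding sequence. Among the 10 members, 4 held it. FTH1 (chr11:61967573-61967602, minus strand, 5′ UTR, exon 1), FTL (chr19:48965335-48965364, plus strand, 5′ UTR, exon 1) and SLC40A1 (chr2:189580660-189580689, minus strand, 5′ UTR, exon 1) each held 1 match. TFRC held 4, all in the 3′ UTR in exon 19 on the minus strand, at chr3:196050978-196051007, chr3:196050574-196050603, chr3:196050509-196050538 and chr3:196050462-196050491. Each is given 5′ to 3′ as 30 bases of the transcript, with the unpaired C and the 6-base loop in capitals.
FTH1: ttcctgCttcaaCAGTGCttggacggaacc
FTL: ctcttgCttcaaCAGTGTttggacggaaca
SLC40A1: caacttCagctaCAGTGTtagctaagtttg
TFRC 1: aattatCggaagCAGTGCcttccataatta
TFRC 2: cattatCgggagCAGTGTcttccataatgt
TFRC 3: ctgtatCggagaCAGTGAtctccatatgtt
TFRC 4: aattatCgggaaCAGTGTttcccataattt
The same 5 letters, CAGTG, opened the loop in every match, because the search required them. No match was found in SLC39A14, SLC11A2, NCOA4, IREB2, ACO1 or HMOX1, which says only that no CAGTG in their annotated coding transcripts stood in a stem that met these pairing rules. Elements that break these rules would be missed, in these genes and in those with a match, so a gene without a match may still carry one.

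With edgeR's quasi-likelihood test over all 15957 rows tested, 2 of the 9 tested members were called, with the adjusted p below 0.05 and a change of more than 1.5-fold, FTH1 and SLC39A14, both higher in 6j treated cells. Over all rows, 3.60% were called, 2.48% higher. Without the fold threshold the same 2 members passed, against 9.16% of all rows. The median log2 fold change of the 9 was 0.40, and that of all rows tested was 0.0046. In 4 members the 6j libraries lay above all non-treated libraries (FTH1, FTL, SLC39A14 and SLC11A2) and in 1 below them (IREB2). Over all rows tested the groups did not overlap in 31.7%, with 16.0% higher and 15.8% lower. The groups share replicate numbers, so a second fit took the number as a block. Whether the numbers mark true pairs is not stated, and the results with the block depend on it. In that fit, 3 members were called, FTH1, SLC39A14 and HMOX1, against 6.47% of all rows, and 7 had an adjusted p under 0.05, 6 higher and 1 lower, against 26.9% (13.1% higher, 13.9% lower).

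**Figure D1:**
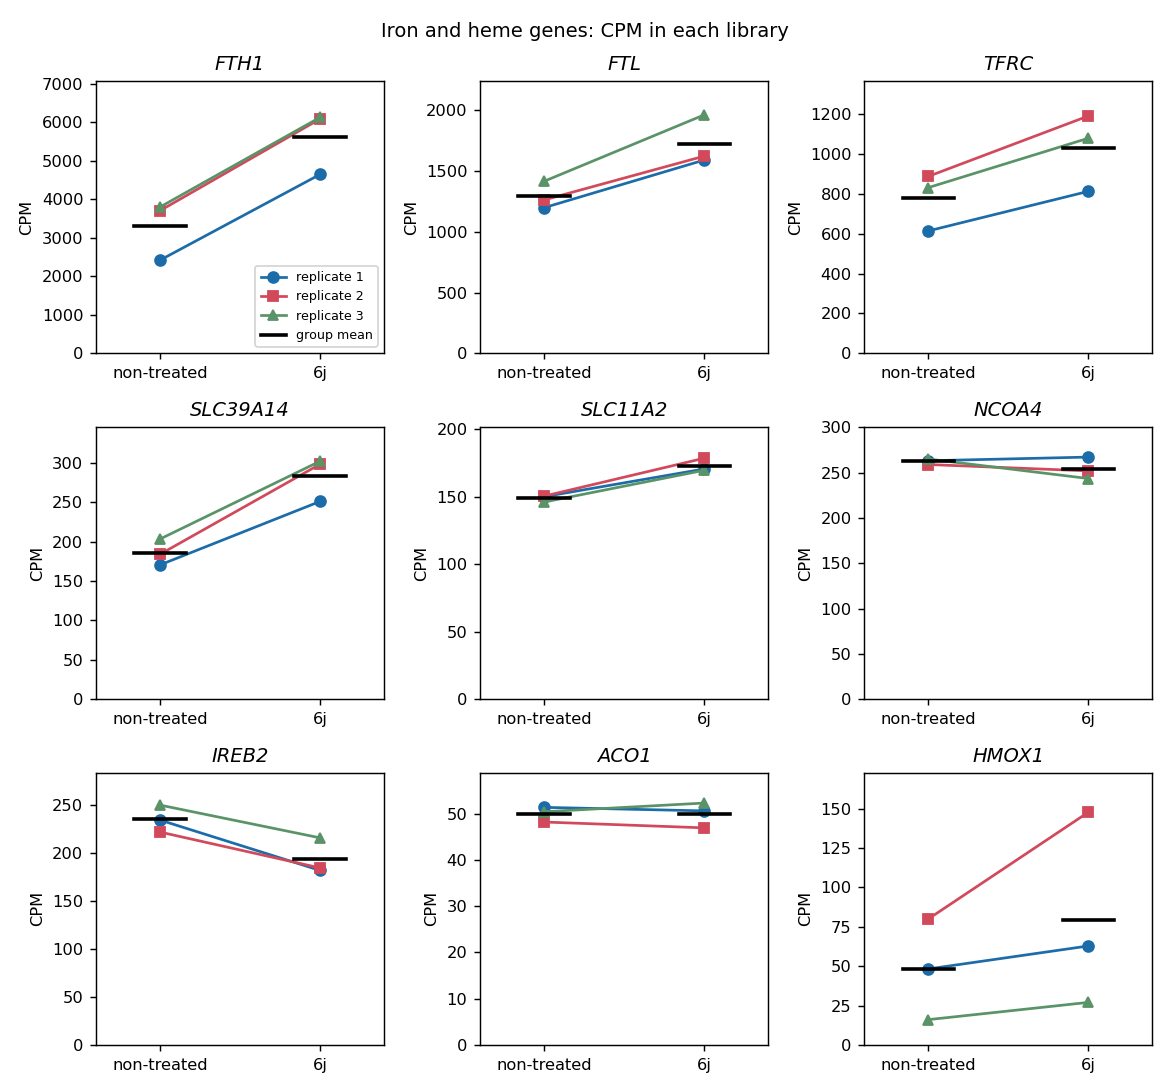
CPM of the 9 members with counts in non-treated and 6j treated cells, with 1 panel per gene and a linear axis from 0. Symbols joined by a line are libraries of the same replicate number, and black bars are group means (n = 3). The lines of FTH1, FTL, TFRC, SLC39A14, SLC11A2 and HMOX1 go up in 3 of 3 replicate numbers, and those of IREB2 go down in 3 of 3.

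The transcripts of ferritin, the iron store, were the most abundant of the members. FTH1 encodes the heavy chain, which oxidises iron as it enters the shell. It lies on chromosome 11 from 61959718 to 61967660 on the minus strand (GRCh38). Its level was 2416, 3700 and 3795 CPM in replicates 1, 2 and 3 of non-treated cells, and 4643, 6082 and 6122 CPM in those of 6j treated cells. Replicate 1 was the lowest in both groups, and even so the lowest 6j library lay above the highest non-treated one. The means were 3304 ± 770 and 5616 ± 843 CPM (SD, n = 3). FTH1 rose by 0.77 on the log2 scale, with a standard error of 0.19, a 95% interval of 0.34 to 1.19 and an adjusted p of 0.0398 (edgeR). Within replicate numbers 1, 2 and 3 the level was 1.92, 1.64 and 1.61 times the non-treated one. With the replicate block the log2 fold change was 0.78 with a standard error of 0.06 and an adjusted p of 8.4e-06 by edgeR. The call without the block held in 1 of 6 edgeR fits that each left out 1 library, without 6j replicate 1 (adjusted p = 0.0333). The adjusted p was 0.0604 to 0.155 in the other 5, while the log2 fold change was 0.58 to 0.89 over the 6. These fits called 186 to 772 of all rows, against 574 with every library. With the block the call of FTH1 held without any 1 of the 3 replicate numbers (adjusted p = 0.000152 to 0.00295).

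FTL encodes the light chain of ferritin, which helps the iron core to form, and lies on chromosome 19 from 48965301 to 48966878 on the plus strand. Its level was 1199, 1262 and 1416 CPM in replicates 1, 2 and 3 of non-treated cells, and 1591, 1623 and 1963 CPM in those of 6j treated cells. The groups did not overlap, and replicate 3 was the highest in each. The log2 fold change of 0.42 (standard error 0.11, 95% interval 0.16 to 0.67) did not pass the test without the block (adjusted p = 0.0522, edgeR). With the replicate block FTL had a log2 fold change of 0.41 and an adjusted p of 0.000188, and it stayed under the 1.5-fold threshold in both fits. Its place at the threshold moved with the tool and the filter, with an adjusted p of 0.00323 by DESeq2 without a block, and by edgeR of 0.0267 without a filter, 0.0493 with a minimum of 1 CPM and 0.0449 over the rows with an Ensembl identifier alone.

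FTH1 and FTL together took 0.359%, 0.496% and 0.515% of all counts in non-treated replicates 1, 2 and 3, and 0.630%, 0.789% and 0.793% in 6j replicates 1, 2 and 3. The share was thus higher in every 6j library, with means of 0.457% ± 0.0851 and 0.737% ± 0.0930 (SD, n = 3). Ranked by count among all rows, FTH1 stood 16th, 5th and 7th in non-treated and 4th, 3rd and 4th in 6j treated cells. The log2 ratio of FTH1 to FTL was 1.01, 1.55 and 1.42 in non-treated and 1.54, 1.91 and 1.64 in 6j treated cells. It was higher by 0.53, 0.35 and 0.22 within replicate numbers 1, 2 and 3, but the groups overlapped and the difference of 0.37 did not pass an exact two-sided permutation test (p = 0.2, 0.2 after adjustment over 2 ratios, with 0.1 the smallest p that 3 against 3 libraries allow). The human genome holds many processed copies of ferritin genes, and GENCODE version 29 annotates 25 pseudogenes of FTH1 and 16 of FTL. The count table had 0 rows for them, so how reads that match both a gene and its copies were assigned cannot be told from it, and ferritin levels are uncertain to that extent.

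TFRC encodes transferrin receptor 1, the main entry of transferrin-bound iron. It lies on chromosome 3 from 196027183 to 196082189 on the minus strand. Its level was 615, 888 and 832 CPM in replicates 1, 2 and 3 of non-treated cells, and 814, 1192 and 1080 CPM in those of 6j treated cells. The groups overlapped, because 6j replicate 1 lay below non-treated replicates 2 and 3, and replicate 1 was the lowest in each group. The log2 fold change was 0.40 (standard error 0.17, 95% interval 0.005 to 0.80) and did not pass the test without the block (adjusted p = 0.187, edgeR). Within replicate numbers the log2 difference was 0.40, 0.42 and 0.38, and with the replicate block the standard error was 0.05 and the adjusted p 0.00022. TFRC thus passed the adjusted p with the block, below the 1.5-fold threshold.

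The log2 ratio of TFRC to FTH1 within each library compares transcripts alone, since the libraries do not measure protein, iron uptake or iron storage. It was −1.97, −2.06 and −2.19 in non-treated and −2.51, −2.35 and −2.50 in 6j treated cells. Every 6j library lay below every non-treated one. The difference of −0.38 was as far as an exact two-sided permutation test can go with 3 against 3 libraries (p = 0.1, 0.2 after adjustment over 2 ratios), and the change within replicate numbers was −0.54, −0.29 and −0.31. Both transcripts were at a higher level in each 6j library than in the non-treated library of its number, FTH1 by the greater factor in all 3.

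**Figure D2:**
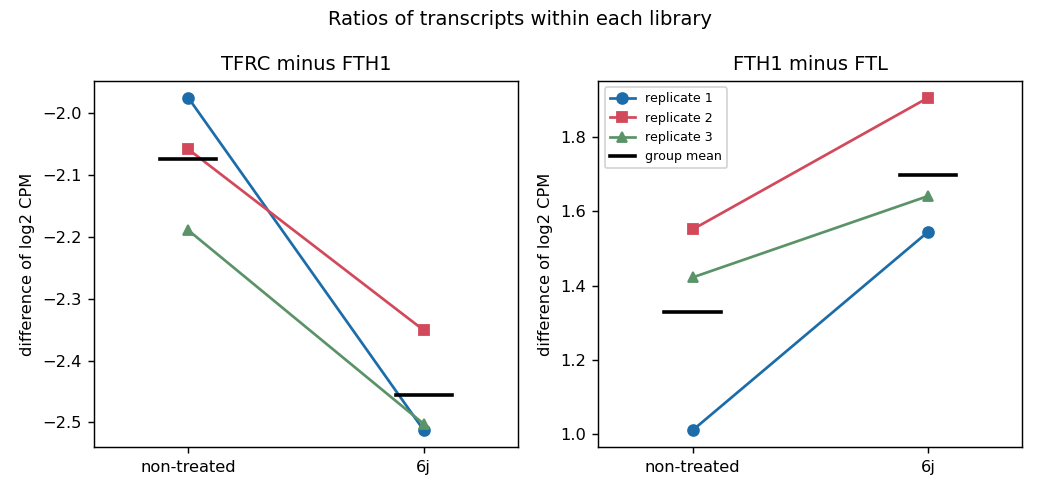
Difference of log2 CPM between TFRC and FTH1 (left) and between FTH1 and FTL (right) in each library, with vertical axes that do not start at 0. Symbols joined by a line share a replicate number and black bars are group means (n = 3), and the left panel shows no overlap while the right panel does.

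SLC39A14 encodes ZIP14, which takes up iron that is not bound to transferrin, together with zinc and manganese, and is prominent in liver. It lies on chromosome 8 from 22367249 to 22434129 on the plus strand. Its level was 170, 184 and 203 CPM in replicates 1, 2 and 3 of non-treated cells, and 251, 298 and 302 CPM in those of 6j treated cells. The groups did not overlap, and replicates 1, 2 and 3 stood in the same order in both. SLC39A14 rose from 186 ± 16.5 to 284 ± 28.5 CPM (SD, n = 3), or by 0.61 on the log2 scale (SE 0.10, 95% interval 0.38 to 0.84, adjusted p = 0.0113, edgeR). With the replicate block the adjusted p was 4.57e-05. This was the smallest adjusted p of the members without the block, yet the fold lay just above 1.5. The call held in 3 of 6 fits that left out 1 library. The adjusted p was 0.0679 without non-treated replicate 1 and 0.0645 without 6j replicate 2, and without 6j replicate 3 the log2 fold change of 0.56 was under the threshold (adjusted p = 0.0224). With the block and without replicate number 2 it was 0.57, also under the threshold.

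SLC11A2 encodes DMT1, which moves iron out of endosomes into the cytosol, and lies on chromosome 12 from 50979401 to 51028566 on the minus strand. Its level was 150.03, 150.45 and 146 CPM in replicates 1, 2 and 3 of non-treated cells, and 171, 179 and 169.6 CPM in those of 6j treated cells. The libraries of a group lay close together and the groups did not overlap. The difference was small, with a log2 fold change of 0.22 (standard error 0.07, 95% interval 0.06 to 0.38) and an adjusted p of 0.0918 without and 0.0208 with the replicate block by edgeR. SLC40A1, the gene of ferroportin, the only known iron exporter of mammalian cells, lies on chromosome 2 from 189560579 to 189583758 on the minus strand. It had 0 counts in all 6 libraries, which allows a level of up to 0.0781 to 0.0952 CPM if 3 counts are taken as the floor. No difference in it was detectable at this depth.

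**Figure D3:**
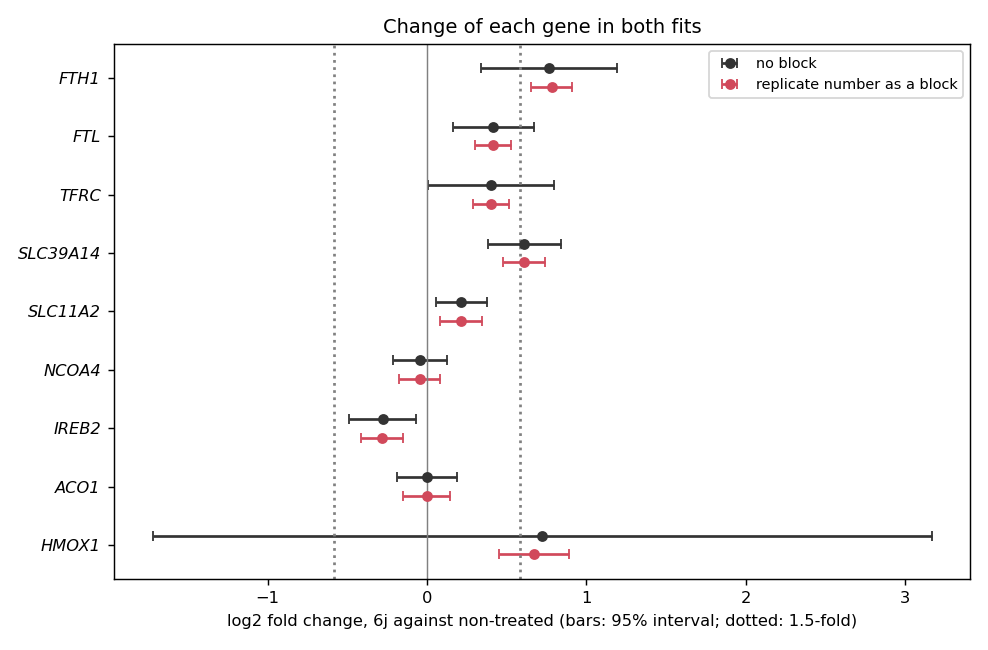
Log2 fold change of each tested member, 6j treated against non-treated cells, without the block (black) and blocked by replicate number (red). Bars are 95% intervals from edgeR and dotted lines mark 1.5-fold. The interval of HMOX1 narrows most with the block, and NCOA4 and ACO1 span 0 in both fits.

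The remaining iron genes sense iron or turn ferritin over. IREB2 encodes IRP2, an iron regulatory protein that is degraded when iron is plentiful, and lies on chromosome 15 from 78437431 to 78501456 on the plus strand. Its level was 235, 222 and 250.4 CPM in replicates 1, 2 and 3 of non-treated cells, and 182, 185 and 216 CPM in those of 6j treated cells. It was the only member whose 6j libraries all lay below the non-treated ones. The log2 fold change was −0.28 (standard error 0.09, 95% interval −0.49 to −0.07), with an adjusted p of 0.0949 without and 0.00541 with the replicate block by edgeR and 0.0468 by DESeq2 without a block. Within replicate numbers 1, 2 and 3 the log2 difference was −0.37, −0.27 and −0.21.

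ACO1 encodes IRP1, which is an aconitase while it holds an iron-sulfur cluster and binds RNA once the cluster is lost, and lies on chromosome 9 from 32384603 to 32454769 on the plus strand. Its level was 51.4, 48.2 and 50.4 CPM in replicates 1, 2 and 3 of non-treated cells, and 50.6, 46.9 and 52.3 CPM in those of 6j treated cells. The groups overlapped throughout. The log2 fold change was −0.0016 with a 95% interval of −0.19 to 0.19 (adjusted p = 0.994, edgeR), and its sign turned under 3 other filters or row sets, with the values given at the end.

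NCOA4 encodes the receptor that carries ferritin to the lysosome, where its iron is freed, and lies on chromosome 10 from 46005088 to 46030714 on the minus strand. Its level was 263, 259 and 265 CPM in replicates 1, 2 and 3 of non-treated cells, and 267, 252 and 243 CPM in those of 6j treated cells. The highest value of all was a 6j library, so the groups overlapped. The log2 fold change was −0.05 with a 95% interval of −0.22 to 0.12 (adjusted p = 0.753, and 0.613 with the replicate block, edgeR). For both ACO1 and NCOA4 the intervals lay within 1.5-fold in either direction, with 1 of 3 replicate numbers higher in 6j treated cells.

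HMOX1 encodes heme oxygenase 1, the inducible enzyme that opens heme into biliverdin, carbon monoxide and iron. It lies on chromosome 22 from 35380361 to 35394214 on the plus strand. Its level was 48.2, 80.0 and 16.1 CPM in replicates 1, 2 and 3 of non-treated cells, and 62.8, 148 and 27.0 CPM in those of 6j treated cells. The order was the same in both groups, with replicate 2 the highest and replicate 3 the lowest, and 6j replicate 3 lay below non-treated replicate 1. The highest library was 4.98 times the lowest in non-treated and 5.47 times in 6j treated cells, a wider spread than in any other member tested. Without the block the log2 fold change of 0.72 had a standard error of 0.91 and an adjusted p of 0.687 (edgeR). Within replicate numbers 1, 2 and 3, HMOX1 was 1.30, 1.85 and 1.68 times the non-treated level. With the replicate block the log2 fold change was 0.67 (standard error 0.10, 95% interval 0.45 to 0.89, adjusted p = 0.00135, edgeR), past both thresholds. That error draws on the spread of other rows as well as on HMOX1, whose own log2 changes were 0.38, 0.89 and 0.75. The blocked p may therefore understate the spread of HMOX1 itself. Without replicate number 2 the blocked log2 fold change was 0.56 (adjusted p = 0.018), under 1.5-fold, and it was 0.82 without number 1 (adjusted p = 0.00223) and 0.64 without number 3 (adjusted p = 0.0128). With 1 library left out, the unblocked value was lowest at −0.09 (6j replicate 2 left out) and highest at 1.30 (non-treated replicate 2 left out).

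The members thus divided in how their variance over the 6 libraries of log2 CPM fell on the replicate number and on the treatment. Treatment held 94.1% of it in SLC11A2, 87.9% in SLC39A14, 74.9% in FTL, 71.2% in FTH1 and 69.4% in IREB2. In HMOX1 the replicate number held 88.5% and treatment 10.5%, and in TFRC they held 57.2% and 42.7%. The remainder was 1.05% or less in FTL, SLC39A14, TFRC and HMOX1, and 40.3% in NCOA4. Over all rows tested the median share was 37.4% for the replicate number and 31.7% for treatment. The replicate number divides the libraries into more groups than treatment does, so it takes a larger share even where neither has an effect. The shares are not corrected for this and cannot be compared as like for like. What the replicate number marks is not stated, so culture, day and library preparation cannot be told apart.

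**Figure D4:**
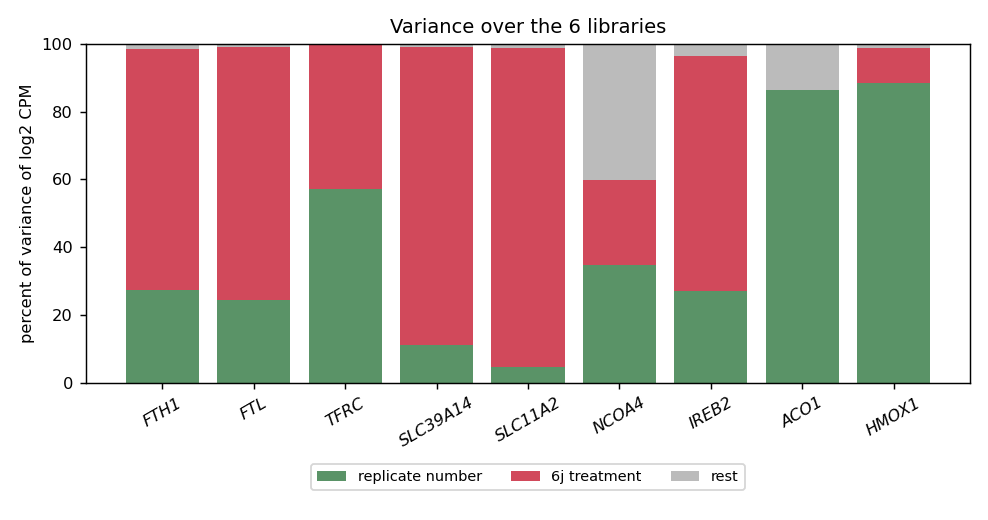
Percent of the variance of log2 CPM over the 6 libraries that fell on the replicate number (green), on 6j treatment (red) and on neither (grey), for the 9 tested members. Treatment takes the greater part in FTH1, FTL, SLC39A14, SLC11A2 and IREB2, and the replicate number in TFRC, ACO1 and HMOX1. The parts are not corrected for the replicate number dividing the libraries into more groups than treatment does.

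Levels of different genes can be set side by side only per transcript length, here as CPM per kb of the longest coding transcript of GENCODE version 29. In non-treated cells the order of these levels was FTH1 with 2688 ± 627, FTL with 1472 ± 127, TFRC with 152 ± 28.3 and NCOA4 with 73.9 ± 0.875 CPM per kb (SD, n = 3), with no overlap between neighbours. SLC39A14 (40.1 ± 3.56), IREB2 (37.1 ± 2.22), SLC11A2 (34.2 ± 0.557) and HMOX1 (26.4 ± 17.5) followed. The libraries of SLC39A14 and IREB2 overlapped, and those of HMOX1 reached from 8.81 to 43.9 CPM per kb, across all 3 of the genes before it. ACO1 was the lowest gene with counts, at 6.69 ± 0.218 CPM per kb, on a longest transcript of 7466 bases. In 6j treated cells FTH1, FTL, TFRC and NCOA4 kept their places, at 4569 ± 686, 1966 ± 235, 201 ± 38.1 and 71.6 ± 3.38 CPM per kb. SLC39A14 followed with 61.2 ± 6.13 and HMOX1 with 43.5 ± 34.1, whose libraries, from 14.8 to 81.1, overlapped those of NCOA4, SLC39A14, SLC11A2 and IREB2. SLC11A2 (39.8 ± 1.13) then stood above IREB2 (30.6 ± 2.98) in every library, where in non-treated cells it had stood below. The FTH1 level per length was 1.44, 2.09 and 1.91 times that of FTL in non-treated and 2.08, 2.68 and 2.23 times in 6j treated cells.

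Among 12211 genes with an Ensembl identifier and a mean of at least 1 CPM, the log2 levels most like those of FTH1 over the 6 libraries were those of ATF2 (Pearson r = 0.998), PRNP (0.997), SRGAP2B (0.993), KCNK1 (0.993) and NEK1 (0.992). Those most like HMOX1 were HECTD4 (0.999), SETD1B (0.994), COLGALT2 (0.991), H1F0 (0.991) and IP6K1 (0.991). These are descriptions over 6 libraries that share treatment and replicate number, and the highest of so many values. H1F0, a linker histone, had 431, 600 and 274 CPM in non-treated and 509, 719 and 316 CPM in 6j treated cells, which is the order of replicates seen in HMOX1.

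The other genes of iron and heme handling were read from 10 lists of 90 symbols, of which 86 were in the table and 71 were tested. In these, 1 gene was called, EPAS1, and 28 of 71 did not overlap between the groups, 11 higher and 17 lower in 6j treated cells, against 3.60% called and 31.7% without overlap over all rows. At an adjusted p under 0.05 alone, 3 were higher and 3 lower, against 9.16% of all rows, and with the replicate block 9 were higher and 13 lower, against 13.1% and 13.9% of all rows. Their median log2 fold change was −0.05, against 0.40 in the members. EPAS1 encodes HIF-2α, a hypoxia factor whose mRNA is known to carry an iron-responsive element. Its level was 86.5, 102 and 107 CPM in non-treated and 136, 173 and 188 CPM in 6j treated cells. It rose by 0.75 on the log2 scale (SE 0.13), with an adjusted p of 0.0127 and of 2e-05 with the replicate block (edgeR). The call was lost when either non-treated replicate 1 or 6j replicate 2 was left out. In the same list of iron regulatory control, FBXL5, which marks IRP2 for degradation, had a log2 fold change of 0.12 and did not pass in either fit.

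**Figure D5:**
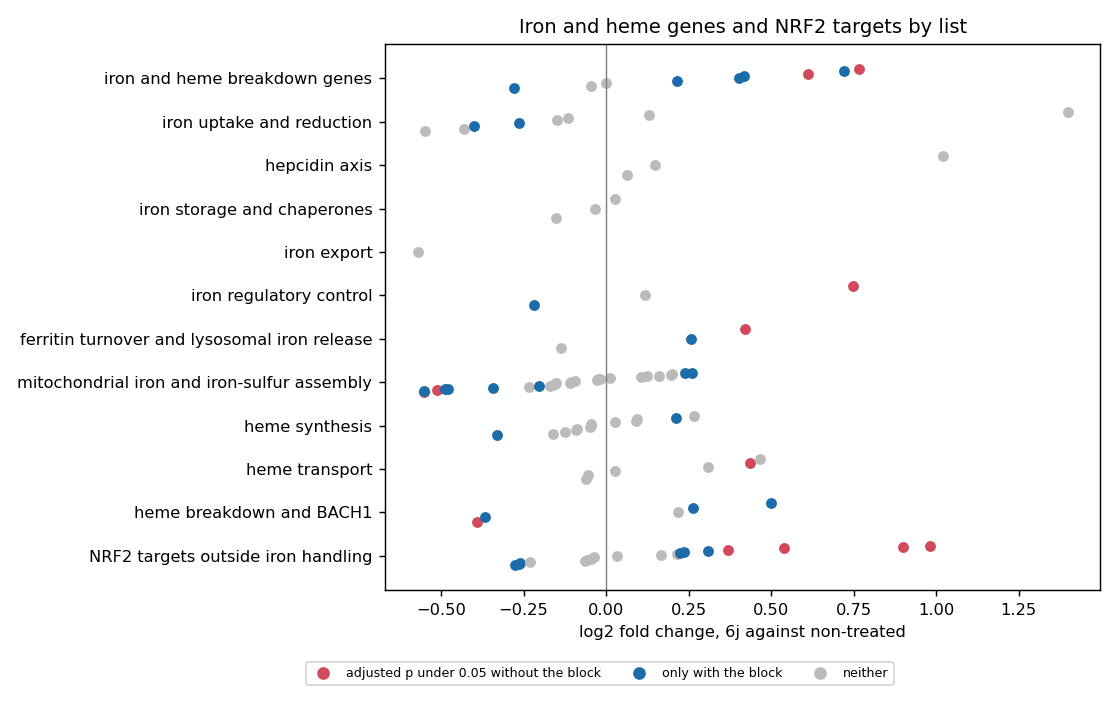
Log2 fold change, 6j treated against non-treated cells, of each tested gene of the members (top line), of the 10 iron and heme lists and of the NRF2 targets. Red points had an adjusted p under 0.05 without the block, blue points with the replicate block alone, and grey points in neither fit, and the other iron and heme lists hold at most 2 red points each.

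In the lists of uptake and reduction, the hepcidin axis, storage and chaperones, and export, no gene of the 15 tested passed without the block. HFE, a partner of the transferrin receptors, and STEAP3, which reduces iron in endosomes, were lower at an adjusted p of 0.025 and 0.00324 with the block (log2 fold changes −0.27 and −0.41, edgeR). HAMP, the gene of the iron hormone hepcidin, and HJV, a coreceptor that controls it, had 0 counts in all 6 libraries. HEPH, a copper oxidase that works with ferroportin, also had 0. The genes with the highest mean CPM in each of these lists were STEAP4, BMP6, PCBP2 and PROM2, with log2 fold changes of −0.11, 0.15, 0.03 and −0.57, none of which passed in either fit. PCBP2, which delivers iron to ferritin, was at 670.2 ± 29.4 and 683 ± 61.7 CPM (SD, n = 3).

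Of the 3 genes of ferritin turnover and lysosomal iron release, 1 passed the adjusted p, against 9.16% of all rows. MCOLN1, a lysosomal channel that lets iron out, went from 33.0 ± 2.72 to 44.2 ± 4.51 CPM (SD, n = 3; log2 fold change 0.42, adjusted p = 0.0436, edgeR). TAX1BP1, a receptor of selective autophagy, had a log2 fold change of 0.26 and passed with the block alone (adjusted p = 0.014), and HERC2 had −0.14 and did not pass. Of the 26 genes of mitochondrial iron and iron-sulfur assembly, 2 passed, against 9.16% of all rows, and both were lower. NFS1, the cysteine desulfurase that supplies sulfur to the clusters, fell from 64.2 ± 2.41 to 45.0 ± 3.89 CPM (log2 fold change −0.51, adjusted p = 0.0122, edgeR). BOLA3, which helps to place finished clusters, fell from 25.1 ± 2.38 to 17.2 ± 0.905 CPM (log2 fold change −0.55, adjusted p = 0.0198, edgeR). With the block, 7 of the 26 were lower and 2 higher, against 13.9% and 13.1% of all rows, and the list's median log2 fold change was −0.11. ISCA1, with the highest mean CPM of the list over all 6 libraries, had 0.11. FBXL5, MCOLN1, NFS1 and BOLA3, and the genes that passed with the block alone, were named after their values had been seen.

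Of the 13 genes of heme synthesis none passed without the block. With it, ALAS1, the rate-limiting enzyme in most cells, was higher (log2 fold change 0.21, adjusted p = 0.028, edgeR). TMEM14C, with the highest mean CPM of them, had −0.05. Of 6 tested genes of heme transport, FLVCR1, a heme exporter, passed the adjusted p with 58.4, 58.3 and 58.2 CPM in non-treated and 76.6, 86.3 and 73.7 CPM in 6j treated cells (log2 fold change 0.44, adjusted p = 0.0172, edgeR). LRP1, which takes up heme bound to hemopexin, had a log2 fold change of 0.31 with an adjusted p of 0.577.

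The genes around HMOX1 did not move one way. BLVRA, which turns biliverdin into bilirubin, fell from 34.8 ± 1.60 to 26.6 ± 2.52 CPM (SD, n = 3; log2 fold change −0.39, adjusted p = 0.0469, edgeR). HMOX2, the constitutive heme oxygenase, had −0.37 (adjusted p = 0.0856 without and 0.0129 with the block by edgeR, and 0.047 by DESeq2 without a block). BLVRB, the other biliverdin reductase, and BACH1, a repressor of HMOX1 and of ferritin genes that heme releases from DNA, had log2 fold changes of 0.26 and 0.50, and in edgeR they passed with the block (adjusted p = 0.0365 and 0.00195) and not without it. BACH1 also passed in DESeq2 without a block (adjusted p = 0.0172). POR, the reductase that feeds heme oxygenase with electrons, had 0.22 and did not pass. FLVCR1, BLVRA, HMOX2, BLVRB and BACH1 were also named after their values had been seen.

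HMOX1, FTH1 and FTL are known targets of NRF2, a factor of the oxidant response, so its targets outside iron handling were set beside them. Of 18 tested, 2 were called, both higher: SLC7A11, the cystine importer (log2 fold change 0.90, adjusted p = 0.0085, edgeR), and OSGIN1 (0.98, adjusted p = 0.0124). The shares over all rows were 3.60% called and 9.16% at the adjusted p alone. ME1 (0.37, adjusted p = 0.0248) and GCLC, a subunit of the enzyme that begins glutathione synthesis (0.54, adjusted p = 0.0267), passed without reaching 1.5-fold. The other 14 did not pass in edgeR without the block, where DESeq2 without a block gave TALDO1 and TXN, both lower, an adjusted p of 0.0272 and 0.04998, and the median of the 18 was 0.10. TALDO1 and TXN were named after their values had been seen. With the block, 7 were higher and 3 lower at the adjusted p, against 13.1% and 13.9% of all rows. The call of OSGIN1 was lost when non-treated replicate 1 was left out and when 6j replicate 2 was, as were those of EPAS1 and SLC39A14. In these 2 fits the log2 fold change was 0.99 and 0.98 for OSGIN1, 0.66 and 0.72 for EPAS1 and 0.55 and 0.57 for SLC39A14, and the calls over all rows fell from 574 to 186 and 193.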

How the data were processed

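RNA of MHCC-97H cells was enriched for mRNA with oligo(dT) beads and sequenced. The table the authors deposited holds raw counts, as whole numbers, in 6 columns, 1 a library. The submitters' processing notes name HISAT2, StringTie and GRCh38 without versions or roles, and do not say if the counts are of reads or are estimates that were rounded. Each column is 1 replicate, and all columns were used. Coordinates and sequences are those of GENCODE version 29 (GRCh38), which holds each of the 19974 Ensembl identifiers. No member shared same-strand exons with another of these 19974 genes. The 5471 rows of new genes were not part of that check and were kept in the fits.

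Rows were filtered with filterByExpr (minimum count 10, minimum total 15), which left 15957, and TMM factors and robust quasi-likelihood fits with no covariate came from edgeR 4.0.16 with limma 3.58.1 under R 4.3.3. Adjusted p-values are Benjamini-Hochberg values over all rows. Calls needed an adjusted p below 0.05 and a change of more than 1.5-fold. The prior count for log2 CPM was 2. Standard errors were derived from the F statistic, whose error term edgeR moderates with the spread of other rows. With 3 libraries a group, the errors of a gene therefore rest in part on other genes. The exact permutation tests of the ratios used scipy 1.17.1 (Python 3.11.15). The edgeR fits without and with the block were tried on simulated counts that held no replicate effect, so what the block gains was not tested. Total counts of 31533403 to 38018349 set the precision, and 3 counts were the floor for a row at 0. Such floors cover counting error alone.

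The groups share replicate numbers, whose meaning the labels and the paper's methods do not give. A fit with the replicate block was planned because the numbers are shared, and the numbers were treated as pairing the libraries. Deviations from the group means correlated at 0.171, 0.18 and 0.312 between libraries of the same number and at −0.231 to 0.0795 between different numbers. With 3 libraries a group few matchings are possible, so these correlations cannot settle whether the libraries are pairs. Other alternatives were RLE and upper quartile factors, other filters, DESeq2 1.42.0, Ensembl rows only and leaving out each library. The blocked fit without each replicate number was chosen after seeing the data.

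The members and gene lists were chosen with earlier results of these data known. Genes named were all members, list genes called in either fit (or the gene of highest mean CPM in a list with none), the 4 NRF2 targets with the smallest adjusted p and the 5 genes most like FTH1 and HMOX1. Others are marked as named after their values had been seen. Some genes of the lists are not reported here.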

Additional observations from a re-analysis of the deposited data

How the results depend on the processing

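The count of members called, 2, was 1 without a filter on low counts, where FTH1 had an adjusted p of 0.0502 by edgeR, and 0 to 2 with 1 library left out, where the calls over all rows ran from 186 to 772 against 574. It was 3 with the replicate block and 1 with the block but without replicate number 2, where the calls over all rows were 1033 and 705. The count of other iron and heme genes called, 1, was 6 without the fold threshold, 0 to 3 with 1 library left out, and 2 with the block without any 1 of the replicate numbers. The other normalizations, filters and tools left both counts within 1.5 times. With 1 library left out, the log2 ratio of TFRC to FTH1 ran from −0.44 to −0.33 and that of FTH1 to FTL from 0.21 to 0.48.

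Signs turned for genes near 0 or with widely spread libraries. ACO1 had a log2 fold change of 0.00078 without a filter, 0.00087 with a minimum of 1 CPM, 0.015 over Ensembl rows only, −0.035 to 0.043 with 1 library left out, and 0.0063 and 0.017 with the block without replicate number 1 or 2. HMOX1 ran from −0.094 to 1.30, PCBP2 from −0.026 to 0.10 and LRP1 from −0.066 to 0.525 with 1 library left out. With the block, STEAP4 was 0.0063 without number 2 and PCBP2 −0.00085 without number 3. The cause of these changes was not tested. Apart from the changes given with each gene, the replicate block changed no other call at both thresholds among the genes named.

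Adding ferritin pseudogene rows to their genes was planned and not run, since the table had 0 such rows. With 3 libraries a group, exact tests could not go below 0.1. SLC40A1 was limited by depth.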
